A study of Rattus norvegicus with 32 samples.

Results

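The genes described here are 9 genes of cAMP signalling that are enriched in the striatum: Ppp1r1b, Adcy5, Gnal, Gng7, Pde10a, Pde1b, Rgs9, Rasd2 and Rasgrp2. They were taken by gene symbol from a table of 34322 genes, and all 9 of 9 passed the filter on low counts that left 17059 genes for testing. In medium spiny neurons, the projection neurons of the striatum, dopamine D1 receptors and the adenosine receptor encoded by Adora2a act through the G protein Golf, whose alpha subunit is encoded by Gnal and which pairs with the gamma subunit encoded by Gng7. Golf activates adenylyl cyclase 5 (Adcy5), the cAMP it makes activates protein kinase A, and the kinase phosphorylates DARPP-32 (Ppp1r1b), which then inhibits protein phosphatase 1. The phosphodiesterases PDE10A and PDE1B break cAMP and cGMP down again, while dopamine D2 receptors act through Gi and Go proteins to restrain the cyclase.

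RNA was measured by sequencing of polyA-selected libraries from the nucleus accumbens shell, the ventral part of the striatum, of wild-type rats. The 32 libraries fall into 4 groups of 8: cannabidiol (CBD) with the anxiety cue, vehicle with the anxiety cue, CBD with the neutral cue, and vehicle with the neutral cue. All groups, vehicle-neutral included, went through shock conditioning, in which the anxiety cue was a lemon odour, and CBD was given before tests of anxiety behaviour in which the cue was present. Sex, age, strain and CBD dose are not given in the labels, which also do not say that each library is a separate rat. The p-values set group differences against the spread between libraries, taken as independent. They hold for rats only if each library is a separate rat.

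The libraries held 11651537 to 24002424 counted reads. Levels are given as CPM, read counts scaled to a common library total, after TMM scaling, and a level of one gene is not compared with that of another, because no transcript lengths were used. All 20 markers of medium spiny neurons were detected, and the 9 genes together took between 0.198% and 1.02% of a library's counts. In 6 libraries Slc17a6, which encodes a vesicular glutamate transporter that subcortical projection neurons use and medium spiny neurons do not, stood at 20 to 47.0 CPM of the total count, with the next library below at 16.8 CPM. They were CBD-anxiety libraries 2 and 7, vehicle-anxiety library 5, and vehicle-neutral libraries 4, 7 and 8, with 0 in CBD-neutral. The library at 16.8 CPM was CBD-neutral library 6, which only the limit of 20 CPM kept out of the 6. In these 6 libraries the summed level of the 20 medium spiny markers was 1400 to 2740 CPM, against 3880 to 5930 CPM in the other 26. The summed level of 12 septal, pallidal and other subcortical markers was 236 to 348 CPM in the 6 libraries, against 84.7 to 155 CPM in the other 26, and that of 10 oligodendrocyte markers was 9870 to 12500 CPM, against 3810 to 9900 CPM. In bulk tissue, fewer cells of a type and less RNA per cell cannot be told apart.

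The G protein subunits and the cyclase, which together make cAMP, come first. Gnal, the Golf alpha subunit, had a lowest, median and highest level of 363, 578 and 668 CPM in CBD-anxiety libraries, against 298, 616 and 671 CPM in vehicle-anxiety libraries. With the neutral cue it had 441, 585 and 715 CPM in CBD libraries, against 224, 511 and 631 CPM in vehicle libraries. The 4 groups overlapped over most of their range and differed mainly in how low their lowest libraries lay. Gng7, the gamma subunit that Golf needs in the striatum, had 560, 1144 and 1511 CPM in CBD-anxiety libraries, against 333, 1264 and 1487 CPM in vehicle-anxiety libraries. Under the neutral cue its levels were 913, 1232 and 1447 CPM in CBD libraries, against 317, 1044 and 1284 CPM in vehicle libraries. Again the groups overlapped, and the CBD-neutral group was the narrowest, with its highest library 1.58 times its lowest, against 4.05 times in the vehicle-neutral group.

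Adcy5, the main adenylyl cyclase of the striatum, had 393, 761 and 1141 CPM in CBD-anxiety libraries, against 264, 909 and 999 CPM in vehicle-anxiety libraries. With the neutral cue it had 711, 830 and 1026 CPM in CBD libraries, against 226, 667 and 864 CPM in vehicle libraries. No CBD-neutral library was below 711 CPM, while the 3 vehicle-neutral libraries high in Slc17a6 and 3 of the other vehicle-neutral libraries were. The promoter window of Adcy5, from 250 bases before to 50 bases after the start of the gene, is shown because it holds the most GC boxes of the windows of these genes. It lies at chr11:79123294-79123593 on the minus strand in RefSeq's GRCr8 and is printed on the strand of the gene. Capitals mark the GC box, GGGCGG, or its reverse complement, CCGCCC, which begins at 220, 213 and 61 bases before the start and again 35 bases after it.
Adcy5 promoter: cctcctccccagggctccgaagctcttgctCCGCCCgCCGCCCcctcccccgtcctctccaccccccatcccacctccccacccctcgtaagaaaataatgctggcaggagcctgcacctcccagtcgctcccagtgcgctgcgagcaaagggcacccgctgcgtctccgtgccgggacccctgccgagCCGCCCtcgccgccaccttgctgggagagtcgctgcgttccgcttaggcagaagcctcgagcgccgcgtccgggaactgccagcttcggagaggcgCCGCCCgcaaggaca

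The genes that break cAMP down or carry its signal onward come next. Pde10a, a phosphodiesterase for cAMP and cGMP that is concentrated in medium spiny neurons, had 290, 742 and 1255 CPM in CBD-anxiety libraries, against 183, 813 and 1298 CPM in vehicle-anxiety libraries. Its levels with the neutral cue were 643, 888 and 961 CPM in CBD libraries, against 175, 601 and 1129 CPM in vehicle libraries. Its highest vehicle-anxiety library was 7.09 times its lowest, the widest range among the 9 genes within one group. Pde1b, a phosphodiesterase that calcium and calmodulin activate, had 469, 1012 and 1443 CPM in CBD-anxiety libraries, against 324, 1139 and 1407 CPM in vehicle-anxiety libraries. With the neutral cue it had 879, 1029 and 1251 CPM in CBD libraries, against 287, 871 and 1147 CPM in vehicle libraries. Within the CBD-neutral group Pde1b had its highest library at 1.42 times its lowest, against 4.00 times in the vehicle-neutral group. Ppp1r1b, which encodes DARPP-32, had 681, 1738 and 2685 CPM in CBD-anxiety libraries, against 424, 1891 and 2534 CPM in vehicle-anxiety libraries. Its levels with the neutral cue were 1434, 1899 and 2387 CPM in CBD libraries, against 348, 1570 and 2101 CPM in vehicle libraries. In the vehicle-anxiety group library 5 alone lay at 424 CPM, and the next lowest of that group was at 1449 CPM.

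RefSeq's table held 8 promoter windows for 7 of the 9 genes, with none for Ppp1r1b or Pde1b. One of the windows of Pde10a, at chr1:54765619-54765918 on the minus strand in GRCr8, is shown because it is the only 1 of the 8 with a half-site of the cAMP response element, the sequence that the cAMP-regulated factor CREB binds. Capitals mark that half-site, TGACG, or its reverse complement, CGTCA, which begins 179 and 104 bases before the start.
Pde10a promoter: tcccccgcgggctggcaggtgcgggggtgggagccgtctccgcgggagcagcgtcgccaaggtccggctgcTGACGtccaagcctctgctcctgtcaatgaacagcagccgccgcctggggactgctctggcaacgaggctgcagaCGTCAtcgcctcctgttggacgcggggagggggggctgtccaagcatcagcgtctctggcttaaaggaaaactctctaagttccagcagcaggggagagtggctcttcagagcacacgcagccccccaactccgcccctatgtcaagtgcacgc
On both strands, the half-site was present in 21.2% of all 33469 windows of the table. The full palindrome, TGACGTCA, which contains the half-site on each strand, was in 0 of the 8 windows and in 1.83% of all windows. The GC box was in 6 of the 8 windows and in 33.1% of all windows. These letters describe the windows only, and no match says only that the letters are not in that window.

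The last 3 genes regulate G proteins and small GTPases. Rgs9, which speeds the shut-off of Gi and Go proteins downstream of D2 receptors, had 133, 305 and 496 CPM in CBD-anxiety libraries, against 84.5, 355 and 478 CPM in vehicle-anxiety libraries. With the neutral cue it had 288, 343 and 432 CPM in CBD libraries, against 74.6, 234 and 444 CPM in vehicle libraries. The CBD-neutral range of Rgs9 lay inside the range of each of the other groups. Rasd2, the small GTPase Rhes, had 239, 568 and 1164 CPM in CBD-anxiety libraries, against 168, 688 and 997 CPM in vehicle-anxiety libraries. Under the neutral cue Rasd2 had 467, 706 and 856 CPM in CBD libraries, against 174, 466 and 898 CPM in vehicle libraries. Rasgrp2, the Rap1 exchange factor CalDAG-GEFI, had 53.3, 79.2 and 133 CPM in CBD-anxiety libraries, against 55.3, 90.6 and 155 CPM in vehicle-anxiety libraries. Under the neutral cue Rasgrp2 had 72.6, 85.6 and 110 CPM in CBD libraries, against 49.1, 70.9 and 123 CPM in vehicle libraries. For Rasd2 and Rasgrp2 too, the groups overlapped and the CBD-neutral range lay within that of the vehicle-neutral group.

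**Figure D1:**
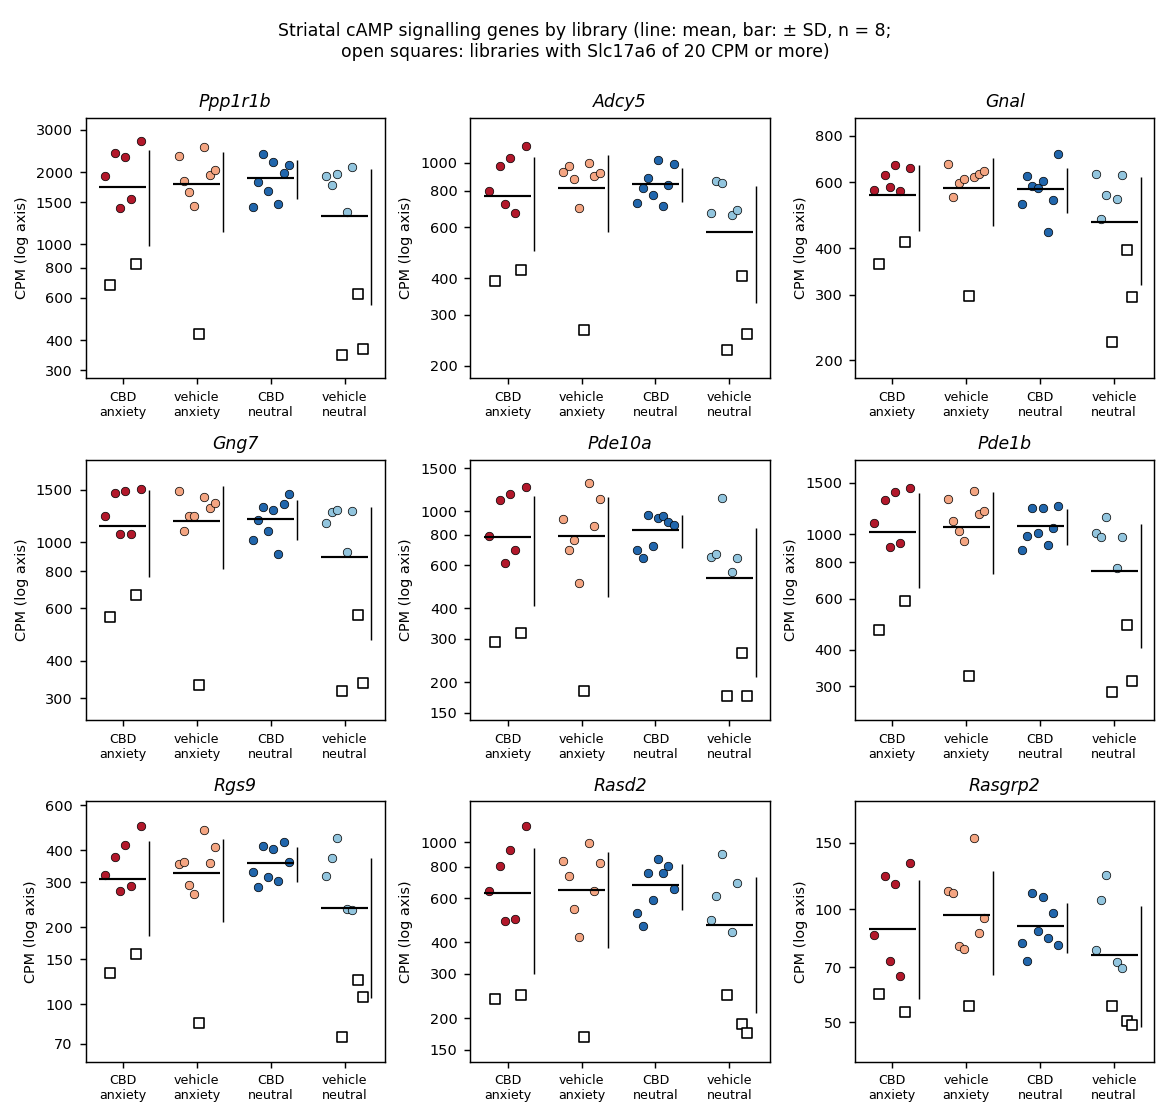
Level of each gene in CPM on a log axis, by group, with 1 point per library, a line at the mean and a bar of ± SD (n = 8 per group). Open squares are the 6 libraries with Slc17a6 of 20 CPM or more, and in each of the 9 genes all 6 lie below the other 26 libraries.

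Within every gene the 6 libraries high in Slc17a6 were the 6 lowest of the 32. For Ppp1r1b the highest of the 6 was at 832 CPM, against 1366 CPM in the lowest of the other 26, and for Pde10a these levels were 318 and 508 CPM. The gap was narrowest for Gnal, at 415 CPM in the highest of the 6 libraries and 441 CPM in the lowest of the other 26, and for Rasgrp2, at 59.6 and 66.4 CPM. The median level in the 6 libraries was 0.269 times that in the other 26 for Pde10a and 0.271 times for Ppp1r1b. That ratio was 0.318 for Rasd2, 0.325 for Rgs9, 0.355 for Gng7, 0.370 for Pde1b and 0.383 for Adcy5. It was higher for Gnal, at 0.549, and for Rasgrp2, at 0.625, so these lay least far below the other libraries. The receptors upstream of these genes were low in the same libraries, with ratios of 0.349 for Drd1, 0.379 for Drd2 and 0.305 for Adora2a. The part of the tissue makeup of these libraries in the results that follow was not tested beyond the values given beside them.

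The first comparison asks how the 9 genes differed between anxiety and neutral cue under vehicle. All 9 were at higher fitted levels with the anxiety cue, by log2 fold changes of 0.30 (Gnal) to 0.58 (Pde10a) with a median of 0.45, and none passed the threshold. Adcy5 averaged 820 ± 242 CPM in vehicle-anxiety libraries and 579 ± 251 CPM in vehicle-neutral libraries (SD, n = 8 each). The fold was 1.42, with a 95% interval of 0.989 to 2.03, and the edgeR quasi-likelihood test gave a Benjamini-Hochberg adjusted p of 0.396. This was the smallest p of the 9 genes, followed by Pde1b, at 1062 ± 334 CPM in vehicle-anxiety libraries and 745 ± 339 CPM in vehicle-neutral libraries, a 1.42-fold difference with an adjusted p of 0.40 in edgeR. Pde10a had the largest fold, 1.49 with an interval of 0.913 to 2.43, and averaged 794 ± 349 CPM in vehicle-anxiety libraries and 533 ± 322 CPM in vehicle-neutral libraries. Ppp1r1b had the largest adjusted p, 0.529 by edgeR, at 1779 ± 648 CPM in vehicle-anxiety libraries and 1309 ± 749 CPM in vehicle-neutral libraries.

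By edgeR, 0 of the 9 genes passed an adjusted p of 0.05, as did 0% of all genes tested, and 0 of 9 were under an unadjusted p of 0.05, against 12.7% of all genes. DESeq2 also called 0 of the 9, and 0 of all 28920 genes it tested. Over all genes tested, 50.1% were higher with the anxiety cue and the median log2 fold change was 0.000368. The differences lay within the spread between libraries, and 3 of the 8 vehicle-neutral libraries but 1 of the 8 vehicle-anxiety libraries belonged to the 6 high in Slc17a6. Without these 6 libraries the 9 genes still lay above 0, with log2 fold changes of 0.096 (Ppp1r1b) to 0.26 (Pde10a) and a median of 0.17. Adcy5 then stood at 0.26 with a standard error of 0.12 and an adjusted p of 0.470 by edgeR, the only one of the 9 under an unadjusted p of 0.05 against 10.5% of all genes. With the mean level of the 20 medium spiny markers as a covariate, the median of the 9 was 0.017, and 5 lay above and 4 below 0. Single libraries also moved the count under an unadjusted p of 0.05, with none past an adjusted p of 0.05 in edgeR. Without vehicle-anxiety library 5, the only one of its group high in Slc17a6, the count was 7 of 9, against 25.2% of all genes. The vehicle-neutral group then still held its 3 such libraries. Vehicle-neutral library 3 had the highest mean log2 level of the 9 genes in its group. Without it the count was 5 of 9, against 17.8%.

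The second comparison is CBD against vehicle with the neutral cue, which shares its 8 vehicle-neutral libraries with the first. All 9 genes were again at higher fitted levels, here in the CBD libraries, with log2 fold changes of 0.26 (Rasgrp2) to 0.65 (Pde10a) and a median of 0.53. Adcy5 averaged 847 ± 115 CPM in CBD-neutral libraries and 579 ± 251 CPM in vehicle-neutral libraries, a 1.46-fold difference with an interval of 1.02 to 2.10. It was the 1 of the 9 genes under an unadjusted p of 0.05, against 22.6% of all genes tested, and its adjusted p by edgeR was 0.201. Pde10a averaged 836 ± 129 CPM in CBD-neutral libraries and 533 ± 322 CPM in vehicle-neutral libraries, 1.57-fold with an interval of 0.961 to 2.56. Rgs9 averaged 355 ± 55.9 CPM in CBD-neutral libraries and 239 ± 133 CPM in vehicle-neutral libraries, 1.49-fold with an interval of 0.967 to 2.29. Rasgrp2 differed least, at 90.1 ± 13.7 CPM in CBD-neutral libraries and 75.4 ± 26.7 CPM in vehicle-neutral libraries.

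In this comparison too, edgeR called 0 of the 9 genes and 0% of all genes at an adjusted p of 0.05. DESeq2 called 377 of the 28920 genes it tested, none of them among the 9. At so small a share, 0 of 9 says little about these genes. Over all genes 50.9% were higher with CBD, and the median log2 fold change was 0.00548. The SD of every one of the 9 genes was smaller in the CBD-neutral group, which holds 0 of the 6 libraries high in Slc17a6, than in the vehicle-neutral group, which holds 3. Without the 6 libraries the log2 fold changes were 0.0049 (Rasgrp2) to 0.19 (Pde10a) with a median of 0.10. Adcy5 then stood at 0.18 with a standard error of 0.12. With the medium spiny covariate the median was 0.0096, with 6 above and 3 below 0. Leaving out vehicle-neutral library 3, again the library highest in these genes in its group, put 5 of the 9 under an unadjusted p of 0.05. The share of all genes there was 27.3%. Leaving out vehicle-anxiety library 5, which enters through the shared estimate of the spread, put 4 of 9 there, against 24.9%. None passed an adjusted p of 0.05 in edgeR. Over all removals of 1 library, Adcy5 ran from 0.43 (without vehicle-neutral library 4) to 0.65 (without vehicle-neutral library 2). Ppp1r1b ran from 0.39 (without vehicle-neutral library 4) to 0.66 (without vehicle-neutral library 6).

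CBD against vehicle with the anxiety cue, which shares the vehicle-anxiety libraries with the first comparison, gave small differences. All 9 genes lay just below 0, at log2 fold changes of -0.12 (Rasgrp2) to -0.024 (Pde10a) with a median of -0.061. Ppp1r1b averaged 1726 ± 736 CPM in CBD-anxiety libraries and 1779 ± 648 CPM in vehicle-anxiety libraries, a fold of 0.970 with an interval of 0.602 to 1.56. Gnal averaged 557 ± 111 CPM in CBD-anxiety libraries and 578 ± 119 CPM in vehicle-anxiety libraries, a fold of 0.963 with an interval of 0.755 to 1.23, the narrowest of the 9. The intervals of all 9 genes included a fold of 1, which does not show that the levels were alike. By edgeR 0 of 9 passed at an adjusted or unadjusted p of 0.05, against 0% and 1.58% of all genes. DESeq2 called 0 of 9, and 0 of all 28920 genes it tested. Over all genes 48.3% lay above 0 and the median was -0.00331. Without the 6 libraries, 2 of which were CBD-anxiety and 1 vehicle-anxiety, 6 of the 9 lay above 0 and the median was 0.018, so these directions rested on the libraries included.

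The anxiety cue against the neutral cue under CBD, made of libraries already used above, likewise gave values near 0, from -0.20 (Rgs9) to -0.022 (Rasgrp2) on the log2 scale, with a median of -0.099. Rgs9 averaged 309 ± 124 CPM in CBD-anxiety libraries and 355 ± 55.9 CPM in CBD-neutral libraries, with an adjusted p of 0.995 by edgeR. Adcy5 averaged 771 ± 273 CPM in CBD-anxiety libraries and 847 ± 115 CPM in CBD-neutral libraries, a fold of 0.910 with an interval of 0.635 to 1.30. By edgeR 0 of 9 passed at either p, against 0% (adjusted) and 3.94% (unadjusted) of all genes. DESeq2 called 0 of 9, and 0 of all 28920 genes it tested. All genes had a median of -0.00347, with 48.8% above 0. Without the 6 libraries all 9 lay above 0, with a median of 0.11.

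The difference between the CBD effects with the 2 cues, which equals the difference between the cue effects under CBD and vehicle, was below 0 for all 9 genes. It was -0.35 (Gnal) to -0.68 (Pde10a) on the log2 scale, with a median of -0.58. Adcy5 had the smallest p, at -0.64 with a standard error of 0.36 and an adjusted p of 0.411 by edgeR. Pde10a stood at -0.68 with a standard error of 0.49 and an adjusted p of 0.504, and Rgs9 at -0.65 with a standard error of 0.43 and an adjusted p of 0.470 by edgeR. By edgeR 0 of 9 genes were called at an adjusted p of 0.05, as for 0% of all genes, and 0 of 9 at an unadjusted p, against 13.8%. DESeq2 called 12 of the 28920 genes it tested, none of them among the 9, a share at which 0 of 9 says little. Without the 6 libraries the median of the 9 was -0.041, and 1 of the 9, Ppp1r1b, lay above 0. Without vehicle-anxiety library 5 alone, the only one of its group high in Slc17a6, the median was -0.72. In that fit 3 of 9 were under an unadjusted p of 0.05 by edgeR, against 23% of all genes. Leaving out vehicle-neutral library 4 instead moved values toward 0. Adcy5 stood at -0.52 without that library and at -0.77 without vehicle-anxiety library 5, and Ppp1r1b at -0.43 and -0.72.

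**Figure D2:**
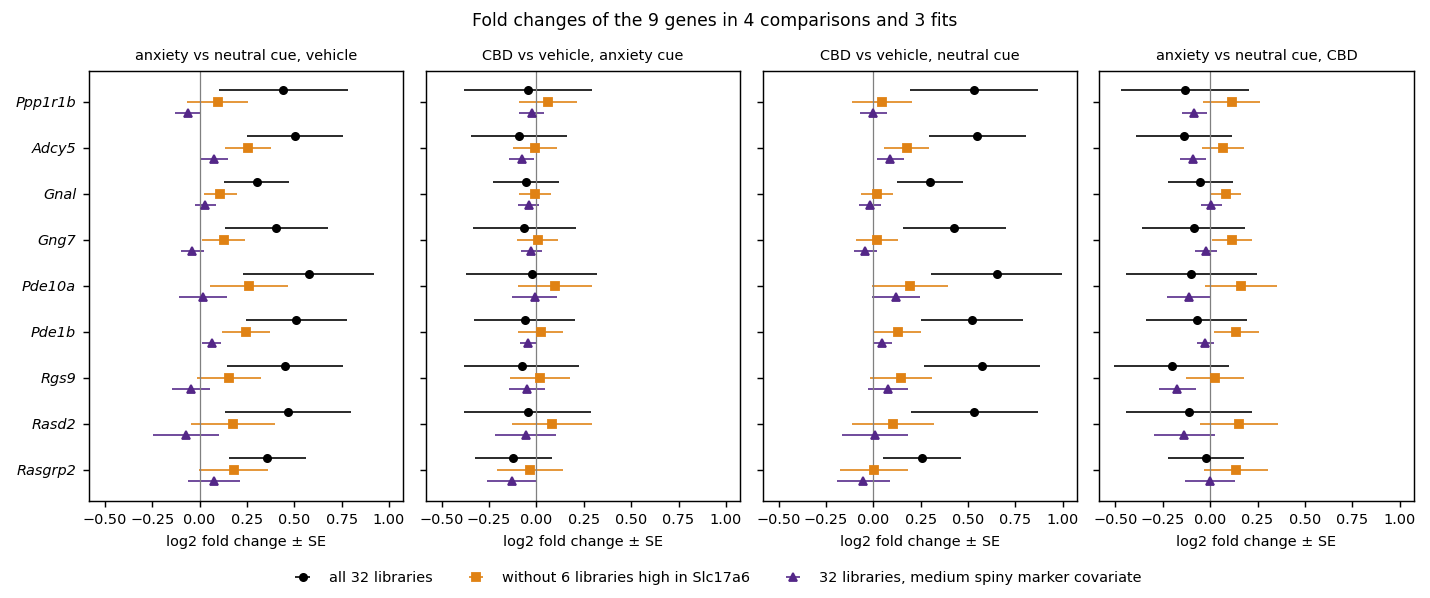
Log2 fold change ± standard error of each gene in 4 comparisons, from the fit to all 32 libraries (circles), the fit without the 6 libraries high in Slc17a6 (squares) and the fit with a covariate for medium spiny markers (triangles). In both comparisons against vehicle with the neutral cue the circles lie right of 0 for all 9 genes, the squares lie closer to 0, and the triangles fall on both sides of it.

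The order of the group means was nearly the same in every gene. Vehicle-neutral had the lowest mean and CBD-anxiety the second lowest in 9 of 9 genes, while the highest mean was in CBD-neutral for 7 genes and in vehicle-anxiety for Gnal and Rasgrp2. Gnal averaged 577 ± 80.0 CPM in CBD-neutral libraries and 578 ± 119 CPM in vehicle-anxiety libraries, and Rasgrp2 averaged 90.1 ± 13.7 CPM in CBD-neutral libraries and 96.5 ± 29.9 CPM in vehicle-anxiety libraries. The means of neighbouring groups in these orders lay less than 1 SD of single libraries apart for all 9 genes, which does not show that they were alike. Leaving out the 6 libraries high in Slc17a6 left 5 vehicle-neutral, 6 CBD-anxiety, 7 vehicle-anxiety and 8 CBD-neutral libraries. Under CBD all 9 genes then lay higher with the anxiety cue, by log2 fold changes of 0.026 (Rgs9) to 0.16 (Pde10a). By these fitted values CBD-anxiety was no longer second lowest in any of the 9 genes, so its place in the order did not hold without the 6 libraries. What in these libraries moved the order was not tested. Since the genes varied together, a shared order is not 9 separate results.

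The 9 genes varied together over libraries, and the ratio of the counts of a pair shows how closely. Among the 36 pairs the steadiest was Adcy5 to Pde1b, with a ratio between 0.665 and 0.884 over the 32 libraries and an SD of 0.11 on the log2 scale. Gng7 to Pde1b was next, with a ratio of 0.982 to 1.30 and an SD of 0.11. These pairs kept their ratio in the 6 libraries high in Slc17a6, where the median Adcy5 to Pde1b ratio was 0.821, against 0.768 in the other 26. The loosest pair was Gnal to Pde10a, with a ratio of 0.463 to 1.69 and an SD of 0.52. Its median was 1.40 in the 6 libraries and 0.727 in the other 26, and its SD over those 26 was 0.37. Ppp1r1b to Rasgrp2 was also loose, with a median ratio of 9.36 in the 6 libraries and an SD of 0.52 over all 32, against 0.22 over the 26. Gnal and Rasgrp2 thus stood apart from the other genes in the libraries where all were low. Rasd2 and Pde10a were a steady pair, at an SD of 0.21 over 32 libraries and 0.16 over 26.

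**Figure D3:**
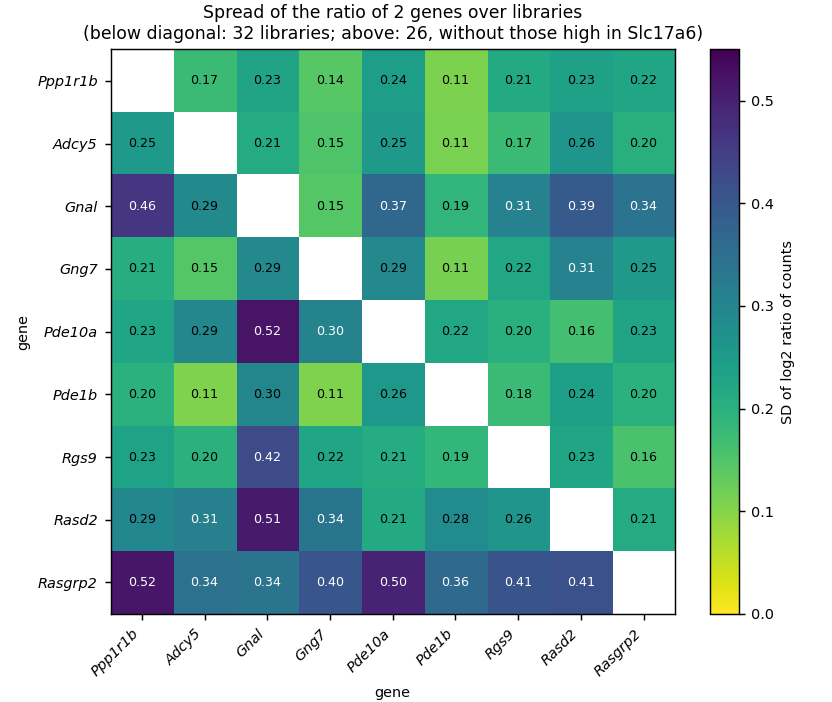
SD of the log2 ratio of counts for each of the 36 pairs of genes, over all 32 libraries below the diagonal and over the 26 without those high in Slc17a6 above it, with lighter squares for steadier ratios. Pairs of Adcy5, Gng7 and Pde1b lie between 0.11 and 0.15 on both sides, and every pair at 0.40 or more includes Gnal or Rasgrp2.

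Against the mean log2 level of the 20 medium spiny markers, none of which is among the 9 genes, each gene followed the markers with its own slope. The SD of log2 CPM over 32 libraries was 0.83 for Pde10a and 0.81 for Ppp1r1b, and 0.39 for Gnal and 0.43 for Rasgrp2. After the marker mean was subtracted these became 0.38 for Pde10a, 0.33 for Ppp1r1b, 0.15 for Gnal and 0.30 for Rasgrp2. Subtraction left the least spread in Gnal, in Pde1b (0.16, against 0.64 before), in Adcy5 (0.17, against 0.61) and in Gng7 (0.17, against 0.64). It left more in Rasd2 (0.38, against 0.76) and Rgs9 (0.28, against 0.73).

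**Figure D4:**
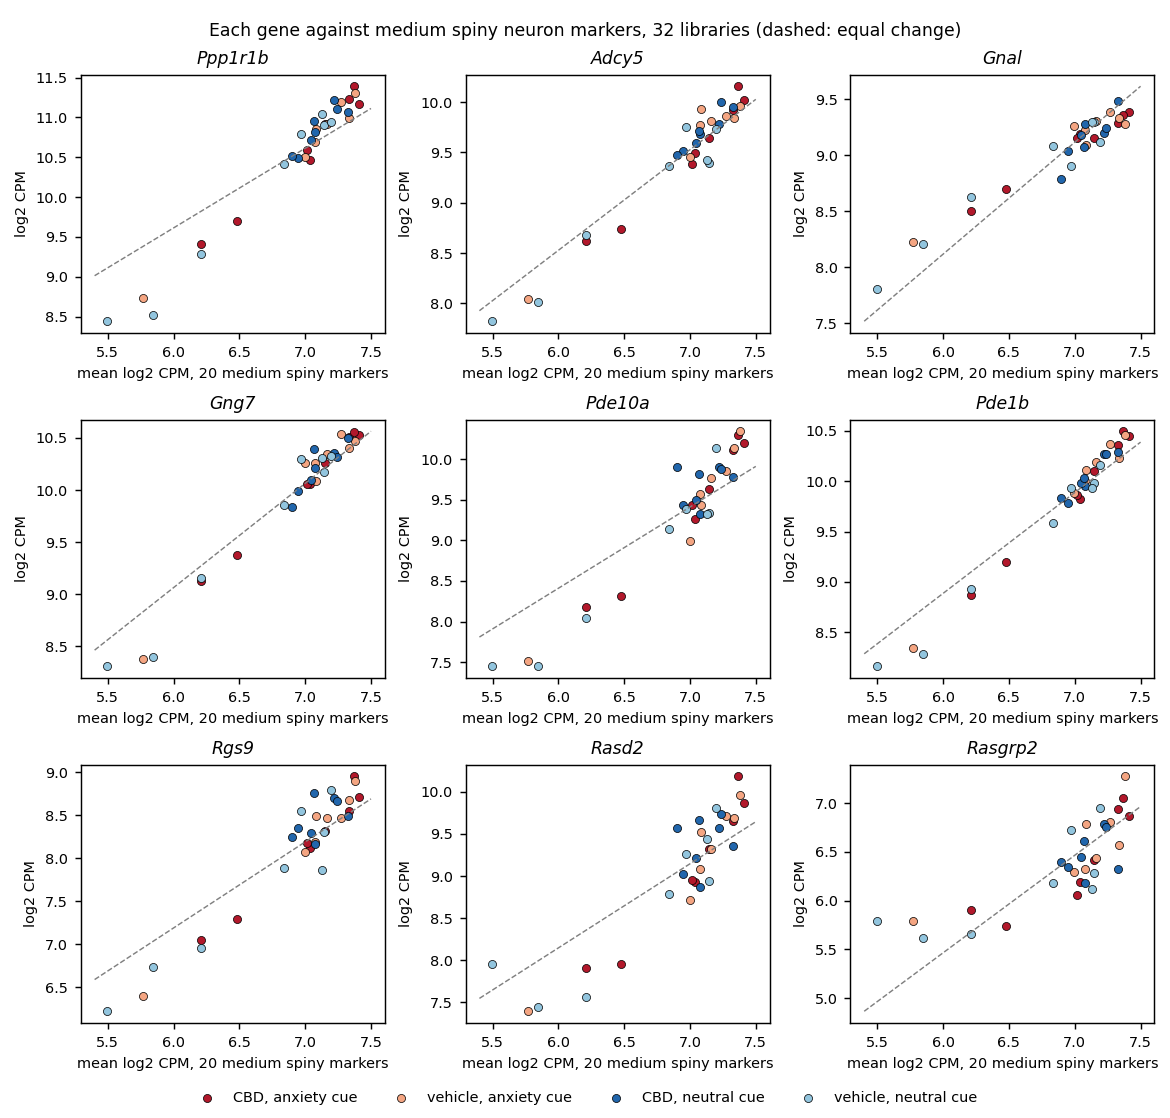
Log2 CPM of each gene against the mean log2 CPM of 20 medium spiny markers, 1 point per library in the colour of its group, with a dashed line of equal change. The 6 points at the lower left of each panel are the libraries high in Slc17a6, which lie under the line for Ppp1r1b, Pde10a and Rgs9 and over it for Gnal.

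Genes whose log2 CPM over the 32 libraries was most like the mean of the 9 were ranked by Pearson's r, as a description. The ranking used all 32 libraries, among them the 6 high in Slc17a6, which form a cluster of their own. The r printed is over the other 26, where the order can differ. Among the nearest were Phactr1 (r = 0.913), Slc35d3 (r = 0.920), the calcium sensor gene Hpca (r = 0.850) and Fbxl16 (r = 0.865). For single genes, Ppp1r1b was nearest to Hpca (r = 0.899) and Adora2a (r = 0.925), and Pde10a to the sodium channel subunit gene Scn4b (r = 0.946) and Rasgrp1 (r = 0.912). Pde1b and Gng7 shared both neighbours, Ngef and Phactr1, at r of 0.933 and 0.894 for Pde1b and 0.846 and 0.860 for Gng7. Adcy5 was nearest to Grm4 (r = 0.904) and Chst15 (r = 0.875), Gnal to Plppr1 (r = 0.880) and Rab40b (r = 0.867), and Rasd2 to Scn4b (r = 0.936) and Asic4 (r = 0.950). Rgs9 was nearest to Htr6 (r = 0.815) and Inf2 (r = 0.896), and Rasgrp2 to Hectd3 (r = 0.941) and Inf2 (r = 0.959). These points share tissue makeup and depth as well as any treatment.

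The rest of the pathway was described from a list of 121 other genes in 8 roles, of which 120 could be tested. None of the 120 passed an adjusted p of 0.05 by edgeR in any of the 5 comparisons. With the anxiety cue under vehicle, 16 of the 120 were higher and 5 lower at an unadjusted p of 0.05, against 6.41% and 6.34% of all genes. With CBD and the neutral cue 18 were higher and 10 lower, against 10.5% and 12% of all genes. With CBD and the anxiety cue 0 were higher and 2 lower, with the cue under CBD 1 was higher and 4 lower, and for the difference of effects 7 were higher and 17 lower. The backgrounds for these were 0.75% and 0.832%, 1.65% and 2.29%, and 7.02% and 6.78% of all genes. Without the 6 libraries high in Slc17a6, 11 of the 120 were under an unadjusted p of 0.05 in either direction for the cue under vehicle, against 10.5% of all genes. In that setting 10 were for CBD with the neutral cue, against 11.5%, and 6 for the difference of effects, against 7.22%.

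By role, the 18 receptors stood at a median of 0.39 (log2 fold change) for the anxiety cue under vehicle, close to the 0.45 of the 9 genes in a list that shares 5 genes with the medium spiny markers. The 16 phosphodiesterases had a median of 0.16 and 13 of 16 above 0, the 17 other G protein subunits had -0.076, and the 9 other cyclases had -0.062. In each role the gene with the smallest p in this comparison is named. Gnas, the alpha subunit of Gs that most other tissues use, averaged 712 ± 315 CPM in vehicle-anxiety libraries and 1044 ± 421 CPM in vehicle-neutral libraries, a log2 fold change of -0.55 with an adjusted p of 0.378 by edgeR. It thus lay in the opposite direction to Gnal, and with CBD and the neutral cue it stood at -0.63 with an adjusted p of 0.145 by edgeR, but at -0.23 without the 6 libraries high in Slc17a6 and at -0.080 with the septal and pallidal covariate. Adcy9, a cyclase found in many tissues, averaged 133 ± 25.5 CPM in vehicle-anxiety libraries and 97.2 ± 26 CPM in vehicle-neutral libraries, at 0.45 with an adjusted p of 0.374 by edgeR. Akap5, which anchors protein kinase A, stood at 0.53, and the cAMP phosphodiesterase Pde4b at 0.32. Cdk5r1, the activator of the kinase Cdk5, which also phosphorylates DARPP-32, stood at 0.24, Rapgef2, a Rap1 exchange factor, at 0.24, and Ep300, a coactivator of CREB, at 0.19. Cnr1, the cannabinoid receptor CB1, averaged 59.7 ± 22.4 CPM in vehicle-anxiety libraries and 95.6 ± 71.2 CPM in vehicle-neutral libraries, at -0.68 with a standard error of 0.37, and at -0.31 without vehicle-neutral library 4 alone. For the cue under vehicle without the 6 libraries, Cnr1 stood at -0.12, Gnas at -0.41 and Adcy9 at 0.32. In that setting Akap5 stood at 0.31, Pde4b at 0.22, Cdk5r1 at 0.17, Rapgef2 at 0.16 and Ep300 at 0.16. With all 32 libraries the adjusted p by edgeR was 0.385 for Akap5, 0.383 for Rapgef2, and 0.374 for Pde4b, Cdk5r1 and Ep300.

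Some counts may include reads of another gene, because no source used here says how strand was treated in counting. In RefSeq's GRCr8, Pde1b overlaps Ppp1r1a, which had up to 2748 counts in a library, and Gnal overlaps Chmp1b and locus-number genes, of up to 626 counts. Adcy5 overlaps a locus-number gene of up to 1932 counts, and Ppp1r1b and Rasd2 overlap none.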

How the data were processed

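Libraries were grouped by the treatment label, and the library numbers, given in accession order, pair nothing between groups. The authors deposited raw read counts, whole numbers for 34322 gene symbols, and all 32 columns were used. The submitters' processing notes name STAR, featureCounts and DESeq2, and as builds both Rnor_6.0 and mRatBN7.2, without versions or roles. Of the symbols, 27234 matched RefSeq's names for GRCr8, a different build, which was used for names, overlaps and promoter windows only.

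The test was edgeR's quasi-likelihood test (edgeR 4.0.16, R 4.3.3), with TMM scaling, the 17059 genes that filterByExpr kept, and 1 fit to the 32 libraries with group means as its terms. The 5 contrasts gave the 2 cue effects, the 2 CBD effects and their difference, with Benjamini-Hochberg adjustment across the tested genes and a threshold of 0.05. Intervals are 95% intervals of the fit. The 28920 genes given for DESeq2 are those with a p-value, and its adjustment can leave out some genes of low count. CPM were computed from the deposited counts with TMM-scaled totals, and log2 CPM with a prior count of 2. Slc17a6 was set against 20 CPM of the unscaled total. The fit was also run on simulated counts, drawn independently for each gene with no tissue makeup shared across genes. That run therefore does not bear on the 6 libraries high in Slc17a6.

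The 9 genes, the pathway lists and the markers were chosen with earlier results of these data known. Besides the 9 genes, the text names in each of 8 roles the gene with the smallest p for the cue under vehicle, the genes among the 5 most like the mean of the 9, of which 1 is not reported here, and the 2 most like each gene. Alternatives were DESeq2 1.42.0 and its size factors, no low-count filter or 1 CPM in 8 libraries, a fit to the groups compared only, covariates for medium spiny markers, septal and pallidal markers or Alb and Plin1, leaving out the libraries high in Slc17a6, or in Slc17a6 or Slc17a7 (100 CPM or more), and leaving out each library in turn. No copied library was found within a group: chi-square per degree of freedom ran from 5.24 to 103 in the 112 pairs of the same group, using genes with 10 counts or more.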

Additional observations from a re-analysis of the deposited data

Results flagged for a closer look

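Values are given here where 1 library lay far from the other 7 of its group, by Dixon's ratio of its gap to the group's whole range at the 95% level. Of 72 groups of values checked 16 met it, and chance gives about 1 in 20 groups where values are independent and normally distributed. These were CPM, many of them of genes that varied together, so the 16 are not set against that rate. Of these, 8 were vehicle-anxiety library 5, which is 1 of the 6 libraries high in Slc17a6. In that library Adcy5 was at 264 CPM (next lowest of its group 700), Gnal at 298 CPM (547), Gng7 at 333 CPM (1090) and Pde1b at 324 CPM (945). Its receptor genes were low as well, with Drd1 at 94.8 CPM (276), Drd2 at 54.0 CPM (163) and Adora2a at 79.3 CPM (291), and Slc17a6 was high, at 45.7 CPM (next highest 5.18). What set this library apart was not tested.

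The other 8 were in genes of other tissues or cells. Slc17a7, the glutamate transporter of cortical neurons, was at 58.9 CPM in CBD-anxiety library 3, at 6.68 CPM in vehicle-anxiety library 7, at 938 CPM in CBD-neutral library 6 and at 22.1 CPM in vehicle-neutral library 1. Alb, a liver gene, was at 80.6 CPM in vehicle-anxiety library 4, at 227 CPM in CBD-neutral library 3 and at 9.66 CPM in vehicle-neutral library 6. Liver transcripts were not confined to these libraries. The summed level of 8 liver markers had a median of 50.7 CPM in CBD-neutral and 38.4 CPM in CBD-anxiety libraries. The medians were 6.05 CPM in vehicle-neutral and 10.7 CPM in vehicle-anxiety libraries. Plin1, a gene of fat cells, was at 15.5 CPM in CBD-anxiety library 1. CBD-neutral library 6 had the lowest Adcy5, Gnal and Gng7 of its group.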

How the results depend on the processing

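None of the 9 genes passed an adjusted p of 0.05 in any comparison under any alternative, and no direction of theirs changed with DESeq2, its size factors, either low-count filter, the groups compared alone or the Alb and Plin1 covariates. No paired analysis was possible because the labels give no replicate numbers that groups share. Every library held at least 11651537 counts, and no value of the 9 genes rested on a count near 0. The directions of the 9 genes changed only with the covariates for neuronal markers, without the libraries high in Slc17a6 or Slc17a7, or without single libraries, and the cause was not tested.

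The number of genes called by edgeR was 0 in every comparison. For CBD with the neutral cue it was 377 with DESeq2, 4 with only the groups compared, 31 and 18 once libraries high in Slc17a6, or in Slc17a6 or Slc17a7, were left out. For the cue under vehicle it was 19 and 13 in those last settings, and for the difference of effects 12 with DESeq2. Leaving out 1 library gave 0 to 165 for CBD with the neutral cue and 0 to 10 for the difference, the highest without vehicle-anxiety library 5. It gave 68 for CBD with the neutral cue without vehicle-anxiety library 4.

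Log2 fold changes that changed sign were these. Without the libraries high in Slc17a6, CBD with the anxiety cue gave Ppp1r1b 0.061, Gng7 0.0059, Pde10a 0.097, Pde1b 0.022, Rgs9 0.018, Rasd2 0.082 and Ep300 0.028, and CBD with the neutral cue gave Cnr1 0.54. The cue under CBD gave Ppp1r1b 0.11, Adcy5 0.068, Gnal 0.082, Gng7 0.11, Pde10a 0.16, Pde1b 0.14, Rgs9 0.026, Rasd2 0.15, Rasgrp2 0.14 and Ep300 0.026, and the difference Ppp1r1b 0.016 and Cnr1 -0.22.

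Without the libraries high in Slc17a6 or Slc17a7, CBD with the anxiety cue gave Ppp1r1b 0.061, Gng7 0.0068, Pde10a 0.099, Pde1b 0.022, Rgs9 0.018, Rasd2 0.082 and Ep300 0.030. The cue under CBD gave Ppp1r1b 0.071, Adcy5 0.039, Gnal 0.039, Gng7 0.070, Pde10a 0.20, Pde1b 0.11, Rasd2 0.18, Rasgrp2 0.13, Cnr1 0.28 and Ep300 0.031, and the difference Rasd2 0.0050.

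With the septal and pallidal covariate, the cue under vehicle gave Ppp1r1b -0.076, Gng7 -0.045 and Rasd2 -0.032. CBD with the anxiety cue gave Ppp1r1b 0.24, Adcy5 0.10, Gnal 0.095, Gng7 0.19, Pde10a 0.21, Pde1b 0.16, Rgs9 0.15, Rasd2 0.13, Akap5 0.014, Cdk5r1 0.027 and Ep300 0.014, and CBD with the neutral cue Gng7 -0.014, Rasgrp2 -0.036 and Cnr1 0.47. The cue under CBD gave Ppp1r1b 0.14, Adcy5 0.058, Gnal 0.12, Gng7 0.16, Pde10a 0.081, Pde1b 0.14, Rasd2 0.029, Rasgrp2 0.090, Akap5 0.0026 and Ep300 0.020. The difference gave Ppp1r1b 0.21, Gnal 0.094, Gng7 0.20, Pde10a 0.031, Pde1b 0.066, Rasd2 0.060, Rasgrp2 0.016, Cnr1 -0.30 and Pde4b 0.038.

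With the medium spiny covariate, the cue under vehicle gave Ppp1r1b -0.059, Gng7 -0.038, Rgs9 -0.045 and Rasd2 -0.071, and CBD with the neutral cue Gnal -0.018, Gng7 -0.042, Rasgrp2 -0.053 and Cnr1 0.44. The cue under CBD gave Gnal 0.0069 and Rasgrp2 0.00032, and the difference Gng7 0.016 and Cnr1 -0.097. With the Alb and Plin1 covariates Cnr1 stood at 0.12 for CBD with the neutral cue.

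Leaving out 1 library at a time, the values for CBD with the anxiety cue ran from -0.19 to 0.076 for Ppp1r1b, -0.22 to 0.0072 for Adcy5, -0.15 to 0.016 for Gnal, -0.20 to 0.037 for Gng7, -0.17 to 0.11 for Pde10a, -0.20 to 0.046 for Pde1b, -0.22 to 0.035 for Rgs9, -0.23 to 0.076 for Rasd2, -0.23 to 0.0081 for Rasgrp2, -0.079 to 0.0081 for Cdk5r1 and -0.034 to 0.019 for Ep300. For the cue under CBD they ran from -0.099 to 0.019 for Gnal, -0.16 to 0.014 for Gng7, -0.23 to 0.025 for Pde10a, -0.16 to 0.035 for Pde1b, -0.30 to 0.010 for Rasd2, -0.13 to 0.058 for Rasgrp2, -0.23 to 0.50 for Cnr1, -0.022 to 0.11 for Pde4b and -0.035 to 0.018 for Ep300. Cnr1 ran from -0.84 to 0.15 for CBD with the neutral cue.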
